A study of Mus musculus with 8 samples.

Results

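The JAK, STAT and SOCS genes of the panel described here were 9 of the 754 genes measured: 1 Janus kinase (Jak3), 5 signal transducers and activators of transcription (Stat3, Stat4, Stat5a, Stat5b and Stat6) and 3 suppressors of cytokine signalling (Socs1, Socs2 and Socs3). They were chosen by symbol alone, among genes whose name starts with Jak or Stat followed by a digit, or with Socs. The counting assay was NanoString nCounter, in which colour-coded probes bound to RNA are counted without amplification. The RNA came from lung cells of Balb/c mice carrying grafts of 4T1, murine breast carcinoma cells known to seed lung metastases. In all, 24 mice were treated with the placebo DMSO or with DSHN (which activates the nuclear receptor NR0B2), daily for 7 days beginning 10 days after the graft, and the labels give a dose of 10 mg/kg for both groups. Each sample pooled 3 lungs of mice with the same treatment, which gave 4 DMSO and 4 DSHN samples, and both groups carried the tumour. Cells were collected with magnetic beads against CD11b and CD11c, surface chains that dendritic cells share with other myeloid cells. The comparison is DSHN against DMSO.

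Cytokine receptors of this pathway have no enzyme of their own. Janus kinases bound to their tails phosphorylate STAT proteins, which pair, enter the nucleus and switch on target genes, among them the SOCS genes, whose products bind and shut down the same kinases and receptors. In myeloid cells STAT3 carries signals of interleukins 6 and 10, STAT5 those of GM-CSF and related growth factors, and STAT6 those of interleukins 4 and 13.

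As deposited, the mean log2 value was higher in DSHN for 1 of 554 genes tested, and the median difference was -1.87. The panel's reference genes Oaz1, Ppia, Rpl19 and Tubb5 shared the shift, averaging 11.91 ± 1.03 over the 4 DMSO samples and 10.01 ± 1.44 over the 4 DSHN samples (SD). Values are therefore given relative to the mean of those 4 genes, on a log2 scale, and a change of 1 is a doubling. Recovered probe counts summed to between 532706 and 923850 in 7 samples and to 123799 in DSHN 1, and the background limit set by the negative-control probes lay at 17.96 to 40.04 counts. In DSHN 1 that limit left 4 of the 9 genes measurable (Jak3, Socs3, Stat3 and Stat6), against 8 of 9 in each other sample, so the differences of genes under its limit, and the counts, are also given without DSHN 1. DMSO 1 also stood apart: its Tubb5 lay 1.40 under the mean of the other 7 samples while Oaz1 lay 0.60 over it (both scaled), and values that moved most without it are given without it too. Dendritic cells are the labelled cell type, and of 11 dendritic cell markers 8 were measured, of which 1 lay above background in all 8 samples and Xcr1 in none. Of 10 monocyte and macrophage markers 9 were measured and 7 lay above background in all 8. Counts over all 8 samples depend largely on DSHN 1, whose scaled log2 limit was 7.69 against 3.77 to 5.11 elsewhere. The dendritic cell markers Batf3 and Ccr7, for example, were each above background in 4 DMSO and 3 DSHN samples.

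None of these JAK, STAT and SOCS genes changed past the threshold. Of the 9 genes 8 were tested, and each had a deposited value of 20 or more in all 4 DMSO samples and in at least 3 DSHN samples. None had an adjusted p under 0.05 (limma with Benjamini-Hochberg adjustment over 554 genes, lowest adjusted p among the 8 genes = 0.925), and none had an unadjusted p under 0.05, against 3.61% of all genes tested at that unadjusted level and 0% after adjustment. The mean was higher in DSHN for 4 of the 8 and lower for 4, where 53.4% of all genes tested were higher. The median difference was 0.01, beside 0.03 over all genes tested. Groups overlapped for all 8 genes, where they did not for 3.25% of all genes tested. Without DSHN 1 the mean was higher for 5 of the 8, against 43.1% of all genes, and without both DMSO 1 and DSHN 1 again for 5, against 59.6%.

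**Figure D1:**
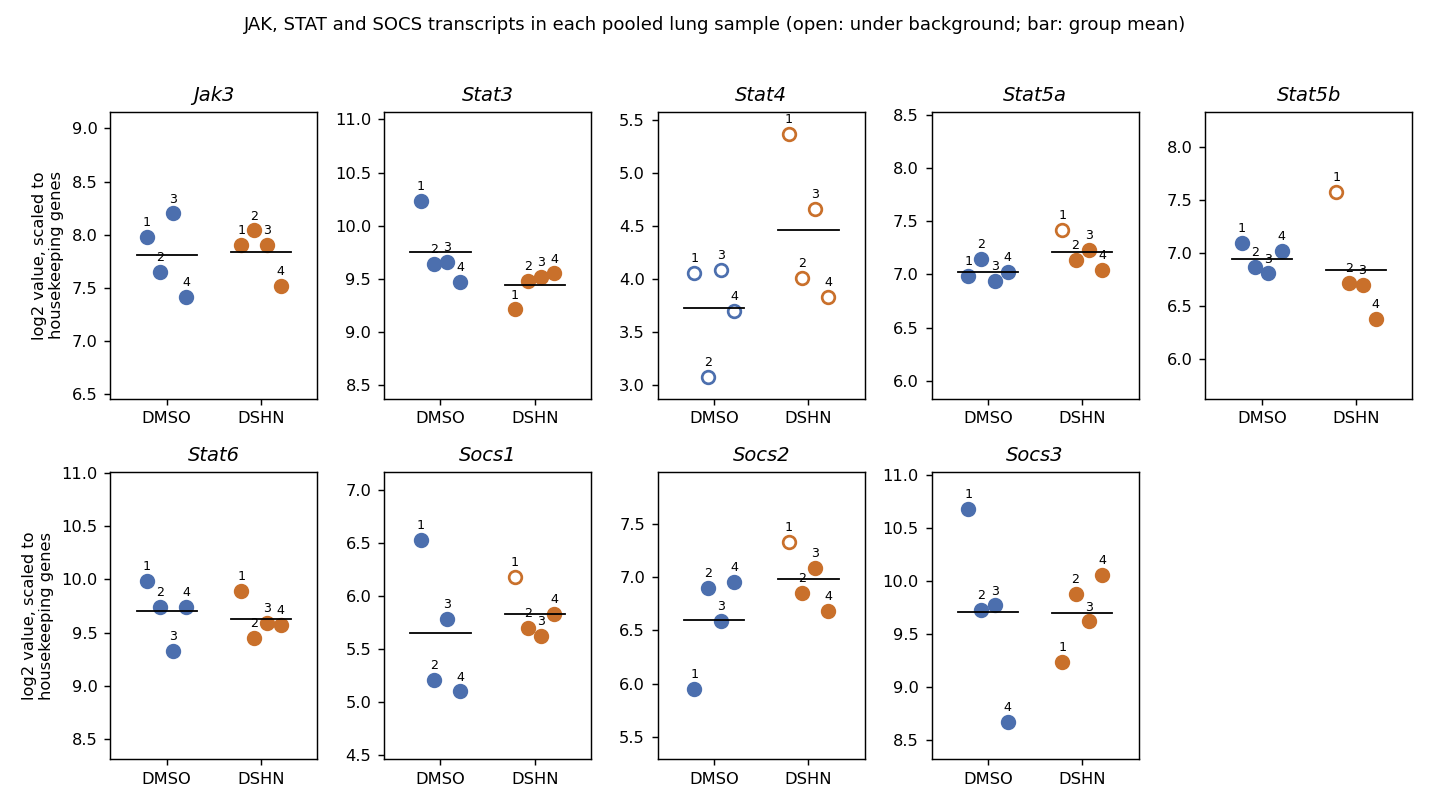
Scaled log2 value of each JAK, STAT and SOCS gene in every sample (vertical axes all span the same number of log2 units), with numbers naming the replicate, horizontal bars the group means and open circles values under background. The groups overlap in every panel, DMSO 1 is the highest sample for Stat3, Stat6, Socs1 and Socs3, and Stat4 lies under background in all samples.

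Jak3, the kinase paired with the common gamma chain that serves interleukins 2, 4, 7, 15 and 21, was the only Janus kinase among the genes described here. Its scaled values were 7.98, 7.65, 8.20 and 7.41 in DMSO 1 to 4 and 7.90, 8.04, 7.90 and 7.52 in DSHN 1 to 4. The DSHN values lay within the DMSO range. The difference was 0.03 ± 0.24 (log2, SE; 95% interval -0.50 to 0.56; limma adjusted p = 0.994). In DSHN 1 it rested on 46 counts, with an exact Poisson 95% interval of 33.8 to 61.5 that covers counting error only.

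Stat3, which carries signals of interleukins 6 and 10 and of G-CSF, was measured above background in all 8 samples and had the lowest fitted difference of the 8 genes. Its values were 10.23, 9.64, 9.66 and 9.47 in DMSO 1 to 4 and 9.21, 9.48, 9.52 and 9.55 in DSHN 1 to 4. All 4 DSHN samples lay below DMSO 1, 2 and 3, and 3 of them lay just above DMSO 4. The difference was -0.31 ± 0.22 (95% interval -0.79 to 0.18; limma adjusted p = 0.925), -0.15 without DMSO 1 and -0.07 without DMSO 1 and DSHN 1. With Tubb5 left out of the scaling it was -0.14. DMSO 1 was also the sample with the highest summed level of monocyte and macrophage markers, at 14.55 against 13.09 to 13.53 in the other DMSO samples and 13.20 to 13.72 in DSHN. Its neutrophil markers (9 of 12 measured, 6 above background in all 8 samples, Mpo and Elane in none) also had the highest sum, at 17.76 against 16.34 to 16.73 in the other DMSO samples and 16.07 to 17.25 in DSHN. Its alveolar macrophage markers (5 of 6 measured, 2 above background in all 8 samples) summed to 12.62, against 13.46 to 14.62 in the other DMSO samples and 12.28 to 14.76 in DSHN. Its dendritic cell markers (8 of 11 measured, 1 above background in all 8 samples) had the lowest sum. It was 9.54, against 10.23 to 10.41 in the other DMSO samples and 10.30 to 10.57 in DSHN. The low Tubb5 of DMSO 1 raises all its scaled values, these sums included. The part of these markers, or of that scaling, in the result was not tested. In pooled tissue fewer cells of a type and less RNA per cell cannot be told apart.

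Stat5a and Stat5b are near-identical transducers of GM-CSF, interleukin 3 and interleukin 2 signals, encoded by adjacent genes. Stat5a had the narrowest spread of the set, with 6.99, 7.15, 6.94 and 7.02 in DMSO 1 to 4 and 7.42, 7.14, 7.23 and 7.04 in DSHN 1 to 4. Its highest sample, DSHN 1, held 33 counts and was under background. The difference was 0.18 ± 0.19 (95% interval -0.25 to 0.62; limma adjusted p = 0.925), 0.11 without DSHN 1 and -0.04 with background subtracted.

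Stat5b was 7.10, 6.87, 6.81 and 7.02 in DMSO 1 to 4 and 7.58, 6.72, 6.70 and 6.38 in DSHN 1 to 4. DSHN 1 was highest with 37 counts, under background, and the other 3 DSHN samples lay below all 4 DMSO samples. Over 8 samples the difference was -0.10 ± 0.28 (95% interval -0.73 to 0.52; limma adjusted p = 0.969). Without DSHN 1 it was -0.35 ± 0.20 (95% interval -0.80 to 0.11; limma adjusted p = 0.988, unadjusted p = 0.117), and that unadjusted p was the smallest of the 8 genes. Without DSHN 1, 0 of the 8 had an unadjusted p under 0.05, against 2.17% of all genes tested.

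Stat6, the transducer of interleukins 4 and 13 that drives alternative activation of macrophages, lay above background everywhere. It was 9.99, 9.74, 9.33 and 9.74 in DMSO 1 to 4 and 9.89, 9.45, 9.59 and 9.57 in DSHN 1 to 4. The DSHN samples lay within the DMSO range. The difference was -0.07 ± 0.21 (95% interval -0.54 to 0.39; limma adjusted p = 0.969). Stat4, which transmits interleukin 12 signals mainly in T and NK cells, had 8 to 22 counts and was under the background limit of each of the 8 samples. It was not tested, and no difference is given for it.

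The suppressors were considered next. Socs1 and Socs3 block Janus kinases directly, and Socs2 is best known for restraining growth hormone and other STAT5 signals. The promoter windows of Socs1 and Socs3 are shown because both genes are textbook targets of the STAT proteins measured here. They are taken from RefSeq (GRCm38.p6, minus strand, 250 bases before to 50 after the start, written 5′ to 3′), from chr16:10785487-10785786 for Socs1 and chr11:117969317-117969616 for Socs3. The annotated Socs3 gene reaches chr11:117970336, beyond its window, so the start used for Socs3 is not the outermost and its window lies inside the gene. Capitals mark matches to TTCNNNGAA, the core of a STAT dimer site (which reads the same on both strands), or to GAAA, any 2 bases and GAAA again, a core of interferon response elements (either strand). The capital run of Socs1 holds 2 matches of the interferon kind, overlapping in GAAA, that begin 83 and 77 bases before the start, and Socs3 holds TTCTTAGAA, which begins 154 bases before it.
Socs1: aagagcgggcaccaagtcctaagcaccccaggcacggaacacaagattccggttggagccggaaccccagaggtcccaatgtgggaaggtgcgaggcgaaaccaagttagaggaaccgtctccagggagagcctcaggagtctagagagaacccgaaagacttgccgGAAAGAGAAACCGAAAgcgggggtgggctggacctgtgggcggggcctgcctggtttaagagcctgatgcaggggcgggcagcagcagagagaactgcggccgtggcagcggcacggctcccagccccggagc
Socs3: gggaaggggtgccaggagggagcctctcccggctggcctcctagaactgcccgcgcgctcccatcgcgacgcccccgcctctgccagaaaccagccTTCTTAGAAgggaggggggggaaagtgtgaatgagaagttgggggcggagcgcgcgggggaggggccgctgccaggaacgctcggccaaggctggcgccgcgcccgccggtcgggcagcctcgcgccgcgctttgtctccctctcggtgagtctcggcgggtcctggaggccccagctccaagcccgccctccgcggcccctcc
Of 11 windows for 8 of the 9 genes, TTCNNNGAA was found in 1 and the interferon core in 2, the other being a window of Stat4. Among 32817 mouse promoter windows the shares were 8.29% and 3.43%. A match is a run of letters and not a measured binding site.

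Socs1 was 6.53, 5.21, 5.78 and 5.10 in DMSO 1 to 4 and 6.18, 5.70, 5.62 and 5.83 in DSHN 1 to 4. DMSO samples spread over a wider range than DSHN samples, and the DSHN 1 value rested on 14 counts (exact Poisson 95% interval 7.7 to 23.5), under background. The difference was 0.18 ± 0.36 (95% interval -0.63 to 0.99; limma adjusted p = 0.932). It was 0.06 without DSHN 1, 0.36 without DMSO 1 and DSHN 1, and -0.71 with background subtracted, where the value of DSHN 1 was set to the floor of 1 count, and 0.02 with background subtracted and DSHN 1 left out.

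Socs2 had the highest fitted difference of the 8 genes. It was 5.95, 6.90, 6.59 and 6.96 in DMSO 1 to 4 and 7.33, 6.85, 7.09 and 6.68 in DSHN 1 to 4. DMSO 1 was lowest, opposite to its place for Socs1 and Socs3, and DSHN 1 was highest on 31 counts, under background. The difference was 0.39 ± 0.28 (95% interval -0.25 to 1.03; limma adjusted p = 0.925), 0.28 without DSHN 1 and 0.06 without DMSO 1 and DSHN 1.

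Socs3, the feedback inhibitor of interleukin 6 and G-CSF receptors, ranged most widely among the 8 tested JAK, STAT and SOCS genes. It was 10.68, 9.73, 9.77 and 8.67 in DMSO 1 to 4 and 9.24, 9.88, 9.62 and 10.06 in DSHN 1 to 4. DMSO 1 was the highest and DMSO 4 the lowest of all 8 samples, as for Socs1. The difference was -0.01 ± 0.39 (95% interval -0.88 to 0.86; limma adjusted p = 0.996). Without DMSO 1 and DSHN 1 it was 0.47 ± 0.29 (95% interval -0.20 to 1.13; limma adjusted p = 0.987), and scaling without Tubb5 gave 0.16.

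**Figure D2:**
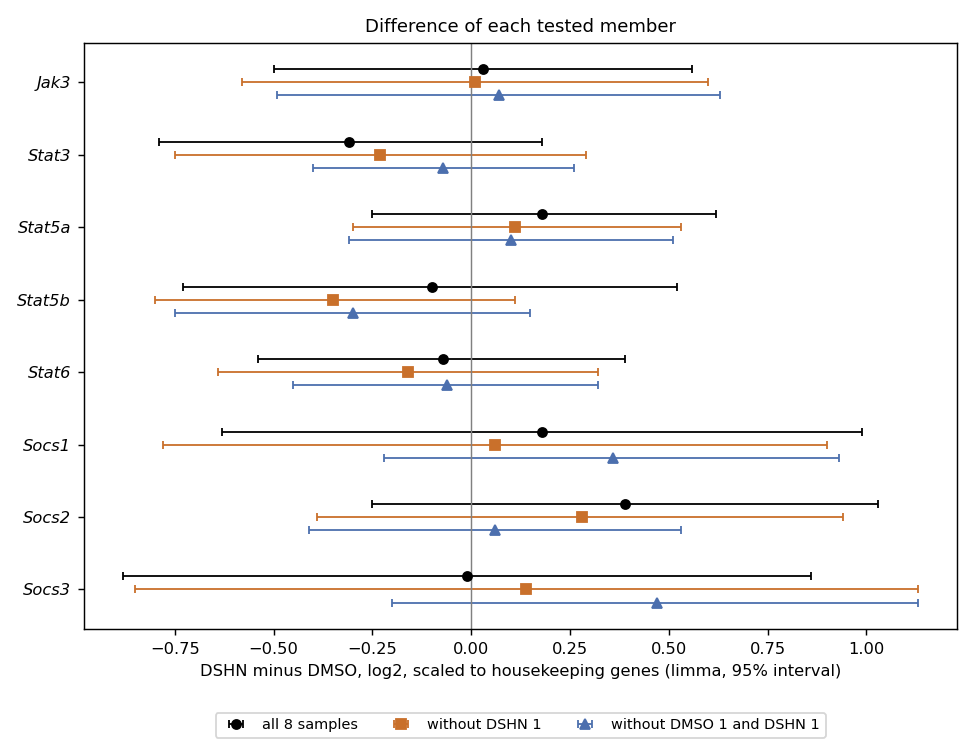
Fitted difference (DSHN minus DMSO, log2, horizontal axis) of the 8 tested genes with 95% intervals from limma, over all 8 samples (black), without DSHN 1 (orange) and without DMSO 1 and DSHN 1 (blue). All intervals include 0, and the estimate for Stat3 moves from -0.31 to -0.07 and that for Socs3 from -0.01 to 0.47.

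Differences between 2 genes within a sample do not depend on scaling, and they were compared between the groups for the 28 pairs of the 8 tested genes. A shift of this kind shows unequal change of 2 transcripts and not which of them moved. Over all 8 samples the groups overlapped for every one of the 28 pairs, where they did not for 3.82% of all pairs of tested genes. The lowest p was that of Stat3 relative to Stat5a, which differed by -0.49 (two-sided exact permutation p = 0.0857; 0.8 after Benjamini-Hochberg adjustment over the 28 pairs). Stat5a was under background in DSHN 1, and without that sample the shift was -0.34 (exact permutation p = 0.171, adjusted 0.8).

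Without DSHN 1, 2 of the 28 pairs had groups that did not overlap, or 7.14%, against 4.87% of all pairs of tested genes. Both hold Stat5b and were singled out after their values were seen. For Stat5a relative to Stat5b the log2 difference was -0.11, 0.28, 0.13 and 0.00 in DMSO 1 to 4 and 0.42, 0.53 and 0.66 in DSHN 2 to 4, with -0.16 in DSHN 1. DSHN 2 to 4 lay above all DMSO samples and DSHN 1, where both genes were under background, below them all. The shift was 0.29 over 8 samples (two-sided exact permutation p = 0.229) and 0.46 without DSHN 1 (exact permutation p = 0.0571; 0.8 adjusted over the 28 pairs). Values of near-identical genes are uncertain, since the specificity of their probes was not tested.

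Socs2 relative to Stat5b was -1.15, 0.03, -0.22 and -0.06 in DMSO 1 to 4 and 0.13, 0.39 and 0.30 in DSHN 2 to 4, with -0.25 in DSHN 1, where both genes were under background. DMSO 1 was far below the other samples. The shift was 0.49 over 8 samples (two-sided exact permutation p = 0.143), 0.62 without DSHN 1 (exact permutation p = 0.0857; 0.8 adjusted over the 28 pairs) and 0.23 without DMSO 1.

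**Figure D3:**
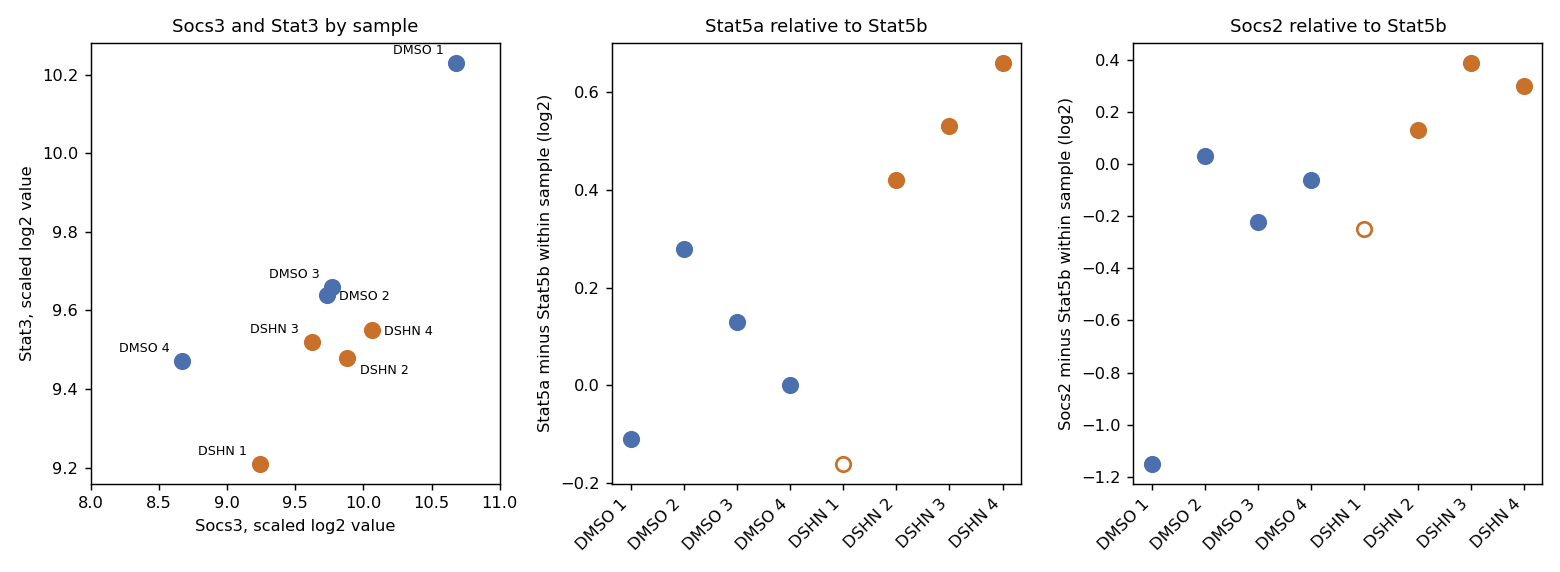
Left, scaled log2 values of Socs3 and Stat3 in the 8 samples; middle and right, the log2 difference of Stat5a and Stat5b and of Socs2 and Stat5b within each sample (blue, DMSO; orange, DSHN; open circles, a gene of the pair under background). DMSO 1 is highest for both Socs3 and Stat3, and both differences from Stat5b separate the groups except in DSHN 1.

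How the genes varied together over samples was examined irrespective of treatment. Jak3, Socs3, Stat3 and Stat6 could be compared over all 8 samples, in 6 pairs, of which Socs3 and Stat3 had the highest correlation (Pearson r = 0.76, exact permutation p = 0.0432; Spearman rho = 0.71, exact permutation p = 0.0576; 0.259 and 0.346 adjusted over 6 pairs). It was 0.71 without DMSO 1 and DMSO 4, the samples farthest from the median of Socs3, and 0.43 without DMSO 1 and DSHN 1. On deviations from the group means r was 0.91 (permutation p = 0.00211, adjusted 0.0126) and rho was 0.86 (permutation p = 0.0107, adjusted 0.0643). These p values are approximate and may be too small, since deviations within a group sum to 0 and were permuted across groups. After median centring r was 0.52, so this relation depended on the scaling.

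Over the 7 samples without DSHN 1, all 8 tested genes could be compared in 28 pairs. None passed 0.05 after adjustment, and 3 had an unadjusted p under 0.05. Socs1 and Socs3 ran together (Pearson r = 0.88, exact permutation p = 0.0179; Spearman rho = 0.93, exact permutation p = 0.00675; 0.198 and 0.189 adjusted over 28 pairs), and r was 0.51 without DMSO 1 and DMSO 4. With Tubb5 left out of the scaling r was 0.84 (exact permutation p = 0.00258, adjusted 0.0361), and after median centring it was 0.78 (exact permutation p = 0.0169, adjusted 0.118). Socs2 ran against Stat3 and Socs1 (r = -0.92 and -0.86, adjusted exact permutation p = 0.198 for each), and the values were -0.15 without DMSO 1 and DMSO 3 and -0.48 without DMSO 1 and DMSO 4. Socs2 and Stat5a had r = 0.64 on the scale of 4 housekeeping genes (exact permutation p = 0.102, adjusted 0.478). They were the other pair past 0.05 with Tubb5 left out (r = 0.94, exact permutation p = 0.00258, adjusted 0.0361). By rank neither pair passed in that setting. There rho was 0.93 for Socs1 with Socs3 and 0.89 for Socs2 with Stat5a (adjusted exact permutation p = 0.172 for each). In the mouse genome Stat5b, Stat5a and Stat3 are neighbours on chromosome 11, with 0 protein-coding genes between them (GRCm38.p6).

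Other genes of the pathway were then read from lists, with the genes above left out. No gene of any list passed the threshold. Interferon-induced genes were lower in DSHN for 11 of 13 tested and higher for 2, with a median of -0.22, and without DSHN 1 again higher for 2, with a median of -0.19. Without DMSO 1 and DSHN 1, 10 of the same 13 were higher and the median was 0.26. The 3 with the smallest p were Cd274 (PD-L1, an inhibitory ligand) at -0.38 ± 0.26, Psmb8 (an immunoproteasome subunit) at -0.30 ± 0.23 and Siglec1 (a macrophage lectin) at -0.47 ± 0.37, each with limma adjusted p = 0.925. Siglec1 was 8.36 in DMSO 1 and 6.66 to 6.89 in the other DMSO samples, beside 6.48 to 6.84 in DSHN. Its difference was -0.52 without DSHN 1. Without DMSO 1 and DSHN 1 the differences of Cd274, Psmb8 and Siglec1 were -0.04, -0.12 and -0.12.

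Among other regulators of the pathway 3 of 17 listed genes were measured, and 1 was higher and 2 lower, or 0 higher without DSHN 1. Usp18, an interferon-induced protease that blocks the type I interferon receptor, was 8.13 in DMSO 1 and 4.38 to 5.09 in the other DMSO samples, beside 4.90 to 5.96 in DSHN. Its difference of -0.30 ± 0.77 became 0.56 without DMSO 1, -0.55 without DSHN 1 and 0.32 without both. Ptprc (CD45, a phosphatase that also acts on Janus kinases) differed by -0.12 ± 0.22, or -0.30 without DSHN 1, and Bcl6, a repressor that competes with STAT proteins, by 0.18 ± 0.31, or -0.02 without DSHN 1.

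Receptors that signal through Janus kinases were higher for 7 of 12 tested and lower for 5, with a median of 0.10. Without DSHN 1 only 4 of the 12 were higher and the median was -0.05, and without DMSO 1 and DSHN 1 it was 0.02. Csf2ra, the GM-CSF receptor chain, differed by 0.80 ± 0.40 (limma unadjusted p = 0.0761). It was 10.88 in DMSO 1, 12.49 to 12.89 in the other DMSO samples and 12.68 to 13.21 in DSHN, so DMSO 1 was far below the rest, and the difference was 0.36 without it. Csf3r, the G-CSF receptor, differed by -0.44 ± 0.34 (-0.13 without DMSO 1) and Il4ra, the interleukin 4 receptor chain, by 0.24 ± 0.19, or 0.15 without DSHN 1.

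Cytokines that use these receptors were higher for 6 of 10 tested and lower for 4, with a median of 0.29. Without DSHN 1 the median was 0.10, with 5 higher, and without DMSO 1 and DSHN 1 it was 0.57, with 8 higher. An unadjusted p under 0.05 was found for 2 of the 10, against 3.61% of all genes tested. Both, Csf2 (GM-CSF) at 1.51 ± 0.37 and the type 2 cytokine Il13 at 1.64 ± 0.48, lay near background, above it in 2 DMSO and 3 DSHN samples each, and without DSHN 1 they differed by 1.25 and 1.19. Osm, oncostatin M, was above background in all samples and differed by -0.40 ± 0.21, or by -0.19 without DMSO 1 and DSHN 1.

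Targets linked to STAT6 were higher for 10 of 14 tested and lower for 4, with a median of 0.32. Without DSHN 1, 12 were higher and the median was 0.25, and without DMSO 1 and DSHN 1 it was 0.24. Ccl22, a chemokine induced by interleukin 4, differed by 0.81 ± 0.33 (limma unadjusted p = 0.0342, adjusted p = 0.925). It was 6.81, 7.72, 8.14 and 7.11 in DMSO 1 to 4 and 7.80, 8.11, 8.68 and 8.41 in DSHN 1 to 4, and the groups overlapped. Cdh1, E-cadherin, differed by 0.41 ± 0.20, or 0.37 without DSHN 1. It is also the 1 epithelial or tumour marker measured of 7 listed, with 6.65 to 7.11 in DMSO and 7.16 to 7.42 in DSHN. The 7.42 was DSHN 1, where it was under background. Its groups did not overlap, as was so for 3.25% of all genes tested. Of 8 endothelial markers 3 were measured, with 0 above background in all 8 samples. These 3 summed to 5.17 to 5.74 in DMSO and 5.96 to 6.67 in DSHN 2 to 4. The sum was 8.54 in DSHN 1, where the background limit of a single gene was 7.69 on this scale. The part of these markers in the result was not tested. Klf4, a transcription factor, differed by -0.53 ± 0.27, or by -0.21 without DMSO 1 and DSHN 1. Genes linked to STAT3 were higher for 5 of 9 and lower for 4, with a median of 0.05 (again 5 higher, and 0.04, without DSHN 1). The 3 with the smallest p were Cebpb at -0.27 ± 0.21, Myc at 0.23 ± 0.19 and Birc5 at 0.42 ± 0.39. Without DMSO 1 they were at -0.13, 0.15 and 0.56, and Birc5 ranged from 0.27 to 0.68 with any 1 sample left out (0.36 without DSHN 1). Of 3 genes linked to STAT5, the survival factor Bcl2 differed by 0.73 ± 0.44, or 0.30 without DSHN 1, Lif by -0.09 ± 0.31, or 0.17 without DMSO 1, and Osm is given above.

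**Figure D4:**
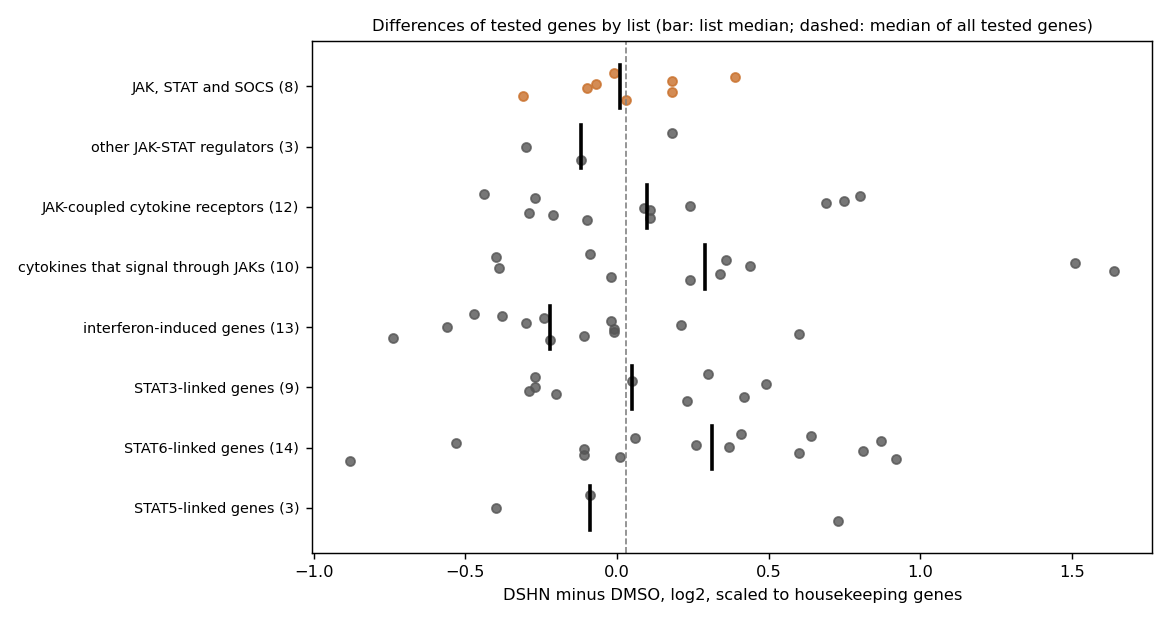
Difference (DSHN minus DMSO, scaled log2, horizontal axis) of each tested gene by list, with the number of genes in brackets, the list median as a bar and the median of all tested genes, 0.03, as a dashed line. List medians lie between -0.22 (interferon-induced genes) and 0.32 (genes linked to STAT6), and the 2 points beyond 1.5 are Csf2 and Il13.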

How the data were processed

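NanoString nCounter values of 754 genes, 6 positive and 8 negative controls in 8 samples were deposited by the authors as log2 values with 2 decimals. The sources used here do not name the software. Control probes were unscaled whole counts, and gene values under 40 counts were whole multiples of 1 step per sample within 0.0072 (log2), so counts were recovered by removing that factor (0.604 to 6.82). Brighter counts are known only to rounding. A gene was above background where its count exceeded the negative controls' mean plus 2 SD. Of the gene values, 3 were listed at 0.

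Values were scaled to the mean log2 of Oaz1, Ppia, Rpl19 and Tubb5, which assumes that these did not respond. Differences are from limma 3.58.1 (R 4.3.3) with a variance trend, without covariates, on the 554 genes that reached a deposited value of 20 (linear) in 4 samples or more, with Benjamini-Hochberg adjustment at 0.05. Each sample, a pool from separate animals, counted as 1 replicate. Single values were tested by exact two-sided permutation. The genes and lists were chosen with earlier results of these data known. Named were the 9 genes, the 3 genes per list with the smallest p, and the 2 genes most correlated with each gene above background in all samples. Within-sample differences of 2 genes and settings without DSHN 1 combined with others were added after seeing the data. 1 further gene that the naming rule takes is not reported here. The limma step was tested on simulated data.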

Additional observations from a re-analysis of the deposited data

How the results depend on the processing

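DSHN 1 has few counts and DMSO 1 stands apart in Tubb5, and 4 samples per group limit what can be seen. Of 196 refits of the 8 genes' differences, 30 turned their direction and 166 did not, and none passed the threshold (lowest limma adjusted p = 0.127, as deposited). Settings that changed only the filter, the variance model or the test, or added a replicate block, return the same differences. Their direction could not turn, so the 166 do not measure how stable it is. As deposited, Jak3 differed by -1.87, Socs1 by -1.72, Socs2 by -1.51 and Stat5a by -1.72, 0 genes of the set were higher and their median was -1.89. With Tubb5 left out of the scaling, Socs3 was at 0.16, Stat5b at 0.07 and Stat6 at 0.10, 7 genes were higher, and the median was 0.18 (0.20 without DSHN 1). Socs3 was at 0.01 after median centring, 0.04 with scaling to genes above background in all samples, 0.16 with sample weights, 0.47 without DMSO 1 and DSHN 1, and, without DSHN 1, 0.14 with background subtracted, 0.30 with 3 housekeeping genes and 0.20 after median centring. Quantile normalization gave Socs1 -0.24, Socs3 0.15 and Stat6 0.07. Background subtraction gave Jak3 -0.11, Socs1 -0.71 and Stat5a -0.04, with 1 of 8 genes higher against 29.6% of all genes. With DSHN 1 left out as well, Socs1 was at 0.02, Stat5a at 0.10 and 4 of 8 were higher. Among genes above background in all 8 samples, 1 of 4 was higher. The cause was not tested.

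With 1 sample left out, differences ranged from -0.10 to 0.16 for Jak3, -0.01 to 0.47 for Socs1, 0.17 to 0.51 for Socs2, -0.36 to 0.31 for Socs3, -0.40 to -0.15 for Stat3, 0.11 to 0.24 for Stat5a, -0.35 to 0.05 for Stat5b and -0.20 to 0.02 for Stat6. Of the 8 genes 2 to 6 were then higher, with 2 without DMSO 4. The deposited housekeeping difference of -1.90 ranged from -2.21 to -1.19, with exact permutation p = 0.114 without DMSO 1 and 0.0571 without DMSO 2, DSHN 1 or DSHN 3. Of the whole panel, 0 genes passed except 1 with sample weights. The 20 genes at an unadjusted p under 0.05 became 196 as deposited, 40 without a filter, 4 above background in all samples, 12 with background subtracted, 43 with sample weights, 11 to 28 without 1 sample (12 without DSHN 1), 9 without DSHN 1 and background, and 12 without DSHN 1 after median centring. With a replicate block, which leaves the differences themselves unchanged, there were 11, and the 8 genes stayed uncalled. Deviations from the group means over all genes tested correlated at -0.18, 0.14, 0.02 and -0.29 between same-numbered samples. Such values show little likeness by number, but sample-wide offsets also enter them, so they cannot exclude a pairing. Correlated pairs of genes past 0.05 after adjustment numbered 0 of 6, but 1 on deviations from group means, by an approximate p, and 1 after median centring (Socs3 with Stat6, r = -0.94). By rank Socs3 with Stat6 did not pass after median centring (rho = -0.79, adjusted exact permutation p = 0.168). On the scale of 4 housekeeping genes their r was 0.06. Stat5a relative to Stat5b shifted by 0.19 to 0.46 without 1 sample and by 0.52 without DSHN 1 and background (exact permutation p = 0.0286, unadjusted). That p is the lowest that 35 assignments allow, and the pair was singled out of 28 after its values were seen. Socs2 relative to Stat5b shifted by 0.23 to 0.62 without 1 sample.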

Other observations

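Over the 8 scaled values, each gene above background in all samples was set against the 290 other genes above background in all samples, and the 2 most alike were noted. For Socs3 these were Tap1 (Pearson r = 0.97, Spearman rho = 0.83), a peptide transporter of antigen presentation, and Irf1 (0.96 and 0.83), an interferon-induced transcription factor. The median r of Socs3 with all 290 genes was 0.29, and without DMSO 1 and DMSO 4 the values were 0.82 for Tap1 and 0.91 for Irf1. For Stat3 they were Ccrl2, an atypical chemokine receptor (r = 0.98, rho = 0.93, and 0.92 without DMSO 1 and DSHN 1), and Cstb, a cathepsin inhibitor (0.98, 0.90 and 0.64). For Stat6 they were Ctnnb1, which encodes beta-catenin (0.97, 0.97 and, without DMSO 1 and DMSO 3, 0.96), and Hivep1, a zinc finger factor (0.95, 0.95 and 0.92). For Jak3 they were Hist2h2aa1, a histone gene (0.80 and 0.71), and Dusp2, a MAP kinase phosphatase (0.79 and 0.88), at 0.68 and 0.42 without DMSO 4 and DSHN 4. These genes are the highest of many and share libraries and scaling, so the values are a description with no test.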
